A study of Mus musculus with 8 samples.

Results

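Adam1a, Adam2, Adam3, Adam5, Adam18 and Adam32 are 6 mouse testis ADAM genes, called sperm ADAM genes here. They were taken by name from a table of 38163 genes measured by RNA-seq of poly(A) RNA in whole testis. The groups are Alkbh5-null testes at postnatal day 18 (KO P18), wild-type testes at postnatal day 18 (WT P18), Alkbh5-null testes at postnatal day 12 (KO P12) and wild-type testes at postnatal day 12 (WT P12), with 2 libraries each and 8 in all. Alkbh5 encodes an RNA demethylase that removes N6-methyladenosine from messenger RNA. The study asked how its loss changes the testis transcriptome while spermatocytes pass through meiotic prophase. The labels describe the P12 testis as rich in leptotene and zygotene cells and the P18 testis as rich in pachytene and diplotene cells. The labels used here give no mouse strain, no design of the null allele and no word on whether 2 libraries of a group are 2 animals, so every p-value measures only the spread between these libraries.

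ADAM proteins are membrane proteins with a metalloprotease-like and a disintegrin domain, and the testis makes a large set of them. In the mouse, ADAM2 (fertilin beta) pairs with ADAM1A in the endoplasmic reticulum of germ cells and with ADAM1B on the sperm surface. The pair with ADAM1A is needed for ADAM3 to reach the sperm surface, and sperm without ADAM3 fail to pass from the uterus into the oviduct and to bind the egg coat. ADAM5, ADAM18 and ADAM32 are further testis ADAM proteins.

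The libraries held 58417668 to 71537841 counts, and 14429 to 15176 genes reached 1 FPKM (fragments scaled by transcript length and library depth) in each. Alkbh5 itself had 17.9 and 0.155 FPKM in KO P18 replicates 1 and 2, 0.00985 and 9.07 FPKM in WT P18, 0.0564 and 0.0218 FPKM in KO P12, and 10.2 and 17.8 FPKM in WT P12. The libraries labelled KO P18 replicate 1 and WT P18 replicate 1 therefore go against their labels, and P18 levels below are given by library and the counts of calls at P18 also without both. The same libraries split in a list of 10 pachytene and diplotene spermatocyte markers, whose summed level was 2420 and 171 FPKM in KO P18, 157 and 1873 FPKM in WT P18, 49.3 and 55.9 FPKM in KO P12, and 105 and 160 FPKM in WT P12. A list of 10 Sertoli cell markers, the somatic nurse cells of the tubule, summed to 398 and 943 FPKM in KO P18, 1074 and 573 FPKM in WT P18, 882 and 908 FPKM in KO P12, and 755 and 721 FPKM in WT P12. The 10 hepatocyte markers summed to 216 and 226 FPKM in KO P18 against 8.64 to 14.5 FPKM in the other 6 libraries, with Alb at 119 and 111 FPKM in KO P18. Summed spermatid markers stayed between 3.85 and 10.3 FPKM in all 8 libraries.

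The deposited row of Adam1a, the alpha partner of ADAM2 in the endoplasmic reticulum, behaved unlike those of the other 5 genes. It had 3.15 and 5.69 FPKM in KO P18, 7.94 and 2.29 FPKM in WT P18, 7.88 and 7.32 FPKM in KO P12, and 1.59 and 7.43 FPKM in WT P12. The 3 libraries under 4 FPKM were KO P18 replicate 1, WT P18 replicate 2 and WT P12 replicate 1, so low and high libraries occurred together within WT P12 as well as at P18. The deposited row for Adam1a (ENSMUSG00000072647, GRCm38 chr5:121518576-121545482, minus strand) is wider than the gene as RefSeq draws it. In GENCODE M21 it joins Adam1a-201, a single exon of 3496 bases, to Adam1a-202, a transcript of 15 exons and 4783 exon bases. Of those 4783 bases, 1805 also lie in exons of Mapkapk5, a protein kinase gene that is not an ADAM, and 4779 also lie in Gm42878, an annotated gene over the same exons. All 3 genes run on the minus strand, so strand could not separate their reads.

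**Figure D1:**
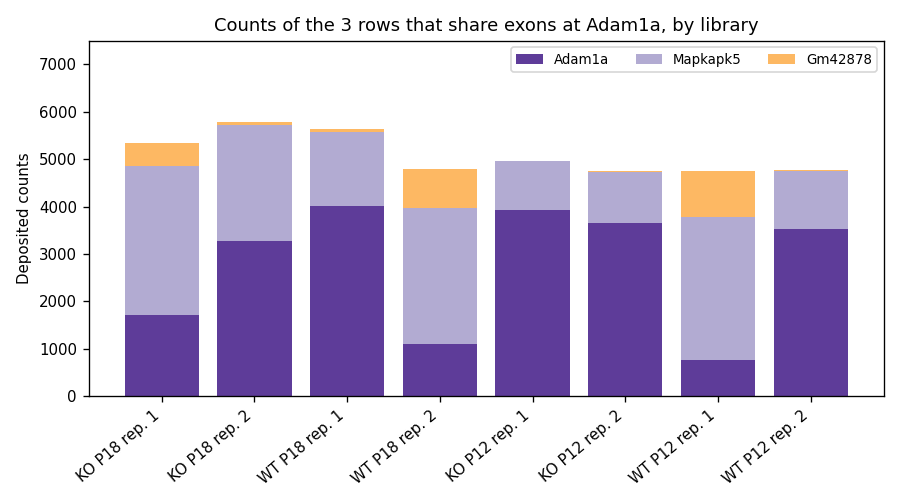
Deposited counts of Adam1a, Mapkapk5 and Gm42878, stacked, in each of the 8 libraries (vertical axis, counts, from 0). The stacks reach similar heights, between 4756 and 5777 counts, while the Adam1a portion runs from 764 counts in WT P12 replicate 1 to 4018 counts in WT P18 replicate 1.

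The counts of these 3 genes moved against each other. Adam1a held 1721 and 3277 counts in KO P18, 4018 and 1103 counts in WT P18, 3918 and 3645 counts in KO P12, and 764 and 3535 counts in WT P12. Mapkapk5 held 3136 and 2441 counts in KO P18, 1549 and 2862 counts in WT P18, 1040 and 1084 counts in KO P12, and 3021 and 1222 counts in WT P12, so it was high where Adam1a was low. Added together with Gm42878, they made 77.3 to 89.9 CPM (counts scaled by the library total) in every library. The highest library was 1.16-fold above the lowest for this sum, and 4.93-fold for Adam1a alone. The share of the sum given to Adam1a was 32.3% and 56.7% in KO P18, 71.4% and 23.1% in WT P18, 78.9% and 76.6% in KO P12, and 16.1% and 74.0% in WT P12. The stacked plot of the 3 genes shows this division. How the counting divided reads between the 3 genes was not tested, and the Adam1a values below cannot be read as the level of Adam1a alone.

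The windows from 250 bases before to 50 bases after the RefSeq start are shown for Adam1a and for its neighbour Adam1b, since the RefSeq start of Adam1a falls inside the wider deposited row. Whether the level of Adam1a differs from that of Adam1b cannot be read from that row. They come from RefSeq (GRCm38.p6), both on the minus strand, written 5′ to 3′, at chr5:121521646-121521945 for Adam1a and chr5:121503386-121503685 for Adam1b. Capitals mark matches to the motifs searched on both strands, which were AACNGNC (MYB-type), TGACGTCA and TGACG (CRE-type), the full X-box, its part GTTGCC and CANNTG (E-box).
Adam1a: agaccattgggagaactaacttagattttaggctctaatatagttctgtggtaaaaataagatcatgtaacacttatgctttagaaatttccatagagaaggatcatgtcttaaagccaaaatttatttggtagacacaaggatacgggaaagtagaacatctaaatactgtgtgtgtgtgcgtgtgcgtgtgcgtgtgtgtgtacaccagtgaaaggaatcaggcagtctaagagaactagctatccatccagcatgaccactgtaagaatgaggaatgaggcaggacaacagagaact
Adam1b: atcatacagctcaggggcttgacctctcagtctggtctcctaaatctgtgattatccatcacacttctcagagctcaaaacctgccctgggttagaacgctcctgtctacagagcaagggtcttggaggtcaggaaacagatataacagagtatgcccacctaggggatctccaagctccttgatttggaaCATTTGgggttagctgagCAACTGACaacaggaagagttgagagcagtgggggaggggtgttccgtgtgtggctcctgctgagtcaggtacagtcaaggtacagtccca
The Adam1b window holds 1 MYB-type match, AACTGAC, 40 bases before the start, and 2 E-box matches, CATTTG 59 and CAACTG 41 bases before it. The CAACTG match overlaps the MYB-type match. Of 32851 promoter windows of this length, 32.8% hold a MYB-type match and 72.3% an E-box match, so both are common. These letters are not in the Adam1a window, and neither window holds the other 4 motifs, which occur in 1.79% (TGACGTCA), 20.8% (TGACG), 0.0183% (the full X-box) and 12.5% (GTTGCC) of windows. The GC content is 39.7% for Adam1a and 51.0% for Adam1b, against a median of 52.7%. Adam1a was the only one of the 6 genes matched in the promoter table.

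Adam1b, the surface partner of ADAM2, is a single-exon gene of 3338 bases with no exon shared with Mapkapk5. It had 30.6 and 1.13 FPKM in KO P18, 1.39 and 15.7 FPKM in WT P18, 0.879 and 0.795 FPKM in KO P12, and 0.934 and 0.911 FPKM in WT P12. It was high in KO P18 replicate 1 and WT P18 replicate 2 and near 1 FPKM elsewhere, as described next for Adam2 and its relatives.

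Adam2 (ENSMUSG00000022039, chr14:66027329-66077733, minus strand) encodes fertilin beta. It had 128 and 5.05 FPKM in KO P18, 4.65 and 100.3 FPKM in WT P18, 0.522 and 0.563 FPKM in KO P12, and 2.83 and 5.39 FPKM in WT P12. At P18 each label holds 1 high and 1 low library. At P12 both KO libraries lie below both WT libraries.

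The other 4 genes stand in tandem on chromosome 8, all on the minus strand, in the order Adam18, Adam3, Adam5, Adam32, within 346559 bp. In GENCODE M21 Adam18 (ENSMUSG00000031552) lies at chr8:24602246-24674755, Adam3 (ENSMUSG00000031553) at chr8:24677225-24725852, Adam5 (ENSMUSG00000031554) at chr8:24727093-24824369 and Adam32 (ENSMUSG00000037437) at chr8:24836140-24948804. The gaps between them are 2469, 1240 and 11770 bp. Adam9, a broadly expressed ADAM gene, begins 806 bp beyond Adam32 on the same strand.

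Adam3, whose protein sperm need to enter the oviduct, had 146 and 0.768 FPKM in KO P18, 1.18 and 70.7 FPKM in WT P18, 0.0546 and 0.0293 FPKM in KO P12, and 0 and 0.125 FPKM in WT P12. Its counts at P12 were 11 and 6 in KO and 0 and 25 in WT, so at that age it stood near the limit of detection. Adam5, which encodes a sperm membrane protein, had 211 and 2.53 FPKM in KO P18, 2.26 and 128.5 FPKM in WT P18, 0.320 and 0.334 FPKM in KO P12, and 0.685 and 1.53 FPKM in WT P12. It was the highest of the 6 genes in both high P18 libraries, and at P12 its KO libraries lie below its WT libraries.

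Adam18, a testis ADAM gene at one end of the tandem, had 34.4 and 0.123 FPKM in KO P18, 0.166 and 16.7 FPKM in WT P18, 0 in both KO P12 libraries, and 0 and 0.139 FPKM in WT P12. No fragment was counted in 3 of the 4 P12 libraries, and WT P12 replicate 2 held 21 counts. Against a floor of 3 counts over both KO P12 libraries, Adam18 was at least 3661-fold higher in KO P18 replicate 1, at least 13.2-fold higher in KO P18 replicate 2, at least 17.7-fold higher in WT P18 replicate 1 and at least 1751-fold higher in WT P18 replicate 2. Such a floor covers counting error only. Adam32, a testis ADAM gene at the other end, had 110.2 and 0.850 FPKM in KO P18, 0.895 and 64.6 FPKM in WT P18, 0.164 and 0.45 FPKM in KO P12, and 0.411 and 0.508 FPKM in WT P12. Its P12 groups overlap.

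Adam9, beyond Adam32, did not share this pattern. It had 11.6 and 22.9 FPKM in KO P18, 24.1 and 13.4 FPKM in WT P18, 15.0 and 16.2 FPKM in KO P12, and 15.3 and 15.6 FPKM in WT P12. Where the 4 tandem genes were high Adam9 was at its lowest, and its P12 libraries differed little between the labels.

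**Figure D2:**
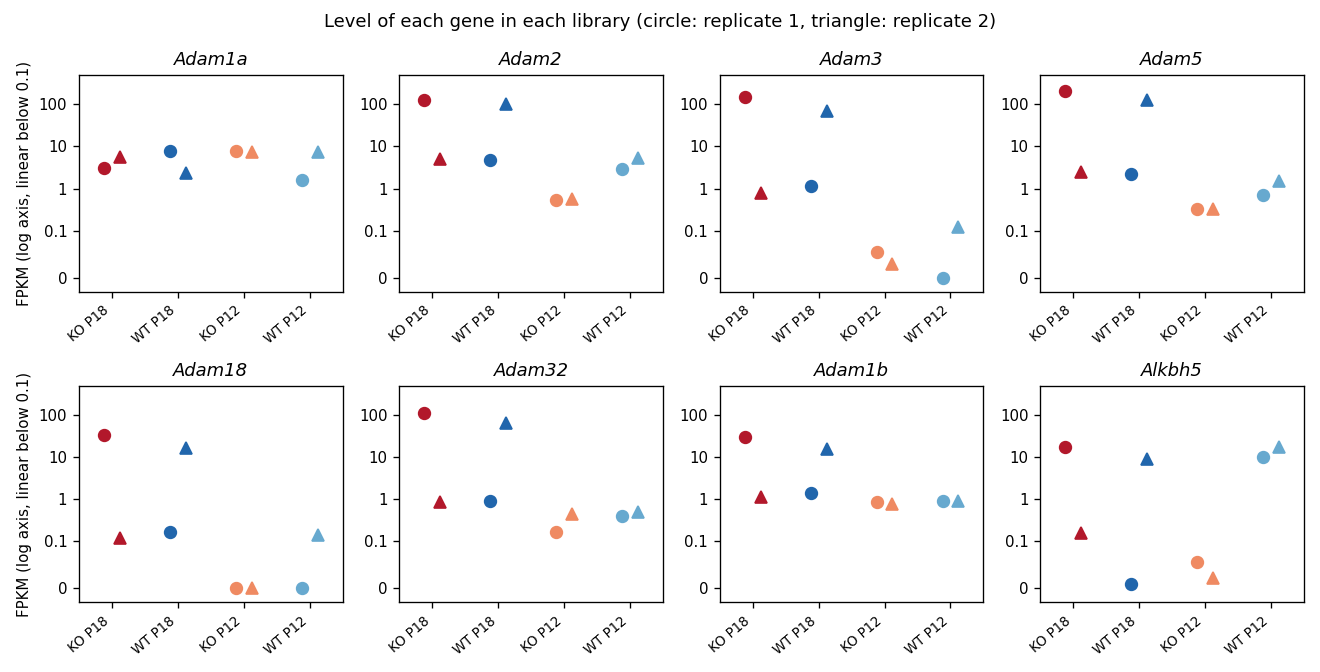
FPKM of the 6 sperm ADAM genes, Adam1b and Alkbh5 in each library (vertical axis, log scale above 0.1 and linear below; circle replicate 1, triangle replicate 2). Adam2, Adam3, Adam5, Adam18, Adam32 and Adam1b are each high in KO P18 replicate 1 and WT P18 replicate 2, the 2 P18 libraries with Alkbh5 transcript. The Adam1a row is not.

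Summed over Adam2, Adam3, Adam5, Adam18 and Adam32, the level was 629 and 9.32 FPKM in KO P18, 9.16 and 381 FPKM in WT P18, 1.06 and 1.38 FPKM in KO P12, and 3.93 and 7.69 FPKM in WT P12. The pachytene and diplotene marker list splits the P18 libraries the same way, and its part in these levels was not tested. In whole testis, fewer cells of a type and less RNA per cell cannot be told apart. The high P18 libraries were not equal. KO P18 replicate 1 exceeded WT P18 replicate 2 by 1.27-fold for Adam2, 1.64-fold for Adam5, 1.70-fold for Adam32, 2.06-fold for Adam3 and 2.07-fold for Adam18. Among the low P18 libraries, KO P18 replicate 2 over WT P18 replicate 1 gave ratios of 1.09 for Adam2, 1.12 for Adam5, 0.950 for Adam32, 0.738 for Adam18 and 0.651 for Adam3.

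The genes differed in how much of their highest level was already present at P12. The mean of the KO P12 libraries was 0.424% of the highest library for Adam2, 0.278% for Adam32, 0.155% for Adam5, 0.0288% for Adam3 and 0 for Adam18. The mean of the WT P12 libraries was 3.21% of the highest library for Adam2, 0.526% for Adam5, 0.417% for Adam32, 0.202% for Adam18 and 0.0428% for Adam3. The Adam1a row stood at 95.7% in KO P12 and 56.8% in WT P12, with the limit given above. By these means Adam2 stood first of the 5 under both labels at P12. On this scale the libraries of Adam5 and Adam32 overlapped under both labels, so their order cannot be told apart. In KO P12 the libraries of Adam2 and Adam32 overlapped as well, and in WT P12 only Adam2 stood apart from the others.

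Mean FPKM is per length and can be set between genes. At P18 the order of means was Adam5, Adam3, Adam2, Adam32, Adam18, Adam1a in KO and Adam5, Adam2, Adam3, Adam32, Adam18, Adam1a in WT. Neighbours in the P18 orders overlapped in every case, each label holding 1 high and 1 low library. Without the 2 P18 libraries that go against their labels (the discordant libraries), the single library left ran Adam1a, Adam2, Adam5, Adam32, Adam3, Adam18 under the KO label and kept the WT order of means under the WT label. KO P12 ran Adam1a, Adam2, Adam5, Adam32, Adam3, Adam18, and of these neighbours only Adam5 and Adam32 overlapped. WT P12 ran Adam1a, Adam2, Adam5, Adam32, Adam18, Adam3. The ranges of its libraries were apart between Adam2 and Adam5, between Adam5 and Adam32 and between Adam32 and Adam18, and they overlapped between Adam1a and Adam2 and between Adam18 and Adam3.

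**Figure D3:**
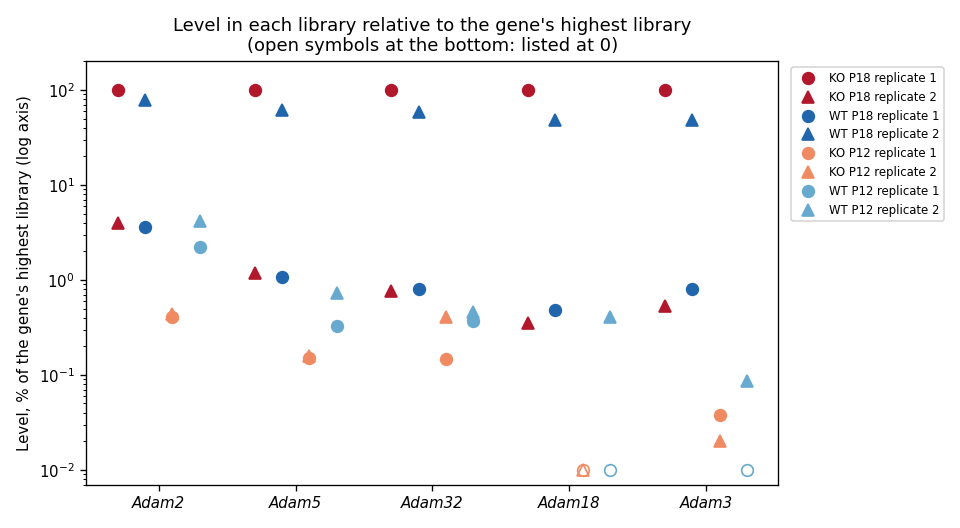
Level of each gene in each library as a percentage of its own highest library (vertical axis, log scale), for Adam2, Adam5, Adam32, Adam18 and Adam3 ordered by the WT P12 mean. Open symbols at the bottom mark libraries listed at 0, and Adam2 has the highest mean percentage at P12 under both labels, at 3.21% in WT.

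The composition of the summed level differed between libraries. Adam2 made up 20.3% and 54.2% of the sum of the 5 genes in KO P18, 50.8% and 26.3% in WT P18, 49.2% and 40.9% in KO P12, and 72.1% and 70.0% in WT P12. Its share was lowest in the 2 libraries with the highest sums, but it was also lower in KO P12, where the sums were smallest, than in WT P12. Adam5 made up 33.5% and 27.1% in KO P18, 24.7% and 33.7% in WT P18, 30.2% and 24.2% in KO P12, and 17.4% and 19.9% in WT P12. The low library WT P18 replicate 1 stood at 1.13 times the WT P12 mean for Adam2, 2.04 times for Adam5, 1.95 times for Adam32, 2.39 times for Adam18 and 18.9 times for Adam3. The high library WT P18 replicate 2 stood at 24.4 times the WT P12 mean for Adam2, 116 times for Adam5, 141 times for Adam32, 240.1 times for Adam18 and 1133 times for Adam3. In both libraries the ratio was smallest for Adam2 and largest for Adam3, which had 0 and 25 counts in WT P12.

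At P12, the comparison of KO with WT asks whether loss of Alkbh5 moves these genes before they reach their high level. Adam2 averaged 0.543 ± 0.0291 FPKM in KO and 4.11 ± 1.81 FPKM in WT (SD, n = 2 each), and Adam5 averaged 0.327 ± 0.00963 FPKM in KO and 1.11 ± 0.60 FPKM in WT (SD, n = 2 each). These were the 2 of 6 genes whose libraries did not overlap, both lower in KO. Over all 16702 genes that reached 1 FPKM in at least 2 libraries, 24% were lower in KO without overlap, so this count is close to the background. All 6 genes passed that minimum, Adam18 and Adam32 only through the high P18 libraries, 1 of each label.

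In edgeR's quasi-likelihood test on the 4 P12 libraries, Adam2 differed by -2.90 ± 0.33 (log2, KO minus WT, SE) with a Benjamini-Hochberg adjusted p = 0.0527, just above the threshold of 0.05. Adam5 differed by -1.74 ± 0.41 with an edgeR adjusted p = 0.152. Thus 0 of 6 genes were called, against 0.0544% of all genes tested (9 of 16541, each of them lower in KO). With p under 0.05 before adjustment there were 2 of 6 genes, Adam2 and Adam5, both lower in KO, against 8.35% of all genes. DESeq2 called both, with adjusted p = 8.36e-16 for Adam2 and 0.00885 for Adam5, while it called 3.27% of all genes lower in KO. limma on log2(FPKM + 1) called no gene, with adjusted p = 0.361 for Adam2 and 2070 genes at an unadjusted p under 0.05. Alkbh5 differed by -8.37 ± 0.42 with an edgeR adjusted p = 0.00462.

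Leaving out either WT library moved Adam2 past the threshold at P12. Without WT P12 replicate 1 it differed by -3.28 ± 0.27 with an edgeR adjusted p = 0.000844, and without WT P12 replicate 2 by -2.36 ± 0.31 with an edgeR adjusted p = 0.0228. In those fits the lone WT library is assumed to vary as the KO libraries do. Without KO P12 replicate 1 or 2 the edgeR adjusted p was 0.149 or 0.066. Across the 11 alternatives tried for Adam2 the adjusted p ran between 8.36e-16 and 1.0, and the difference stayed negative in each, between -3.28 and -1.68.

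The remaining genes gave wider errors at P12. Adam32 differed by -0.58 ± 0.50 (edgeR adjusted p = 0.656) and Adam3 by -0.59 ± 1.36 (edgeR adjusted p = 0.89). Adam18 had no counts in KO and 21 in WT, which makes it at least 7.34-fold lower in KO over the group at a floor of 3 counts, all from 1 WT library, and its edgeR adjusted p was 0.410. The Adam1a row differed by 0.77 ± 0.58 (edgeR adjusted p = 0.603), and by -0.02 ± 0.08 once summed with Mapkapk5 and Gm42878 (edgeR adjusted p = 0.944). The median difference of the 6 genes was -1.17, also with Adam18 at its bound, against a median of 0.01 over all genes tested. Early prophase spermatocyte markers summed to 301 and 402 FPKM in KO P12 and 500 and 547 FPKM in WT P12, and all 10 had a log2 difference below 0. The pachytene and diplotene sums given above were also lower in KO P12 than in WT P12, with 8 of 9 tested markers below 0. Sertoli cell markers were on the other side, with all 10 above 0. The part of these cell types in the Adam2 and Adam5 differences was not tested.

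**Figure D4:**
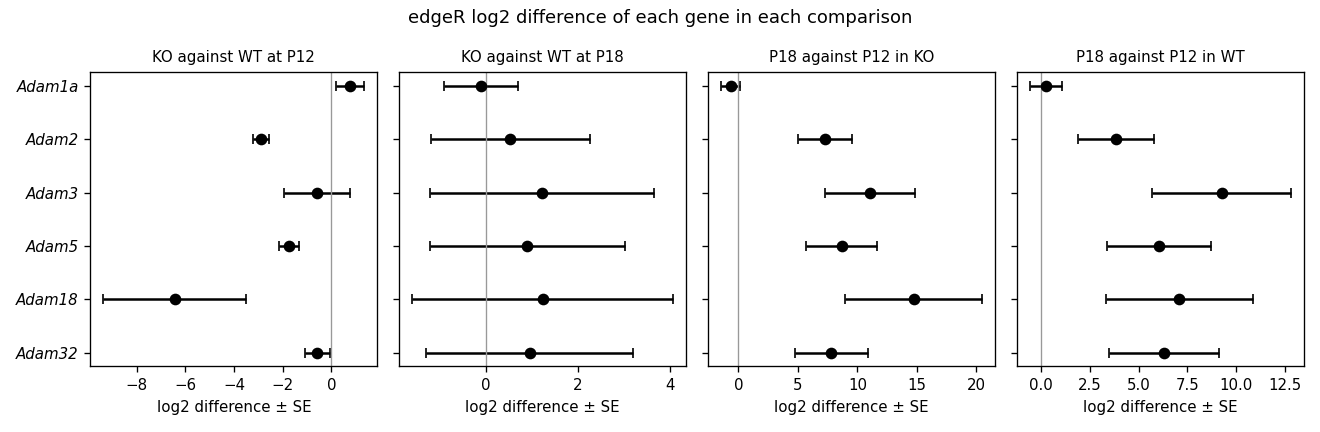
Log2 difference ± SE from edgeR for each of the 6 genes (horizontal axis, one scale per panel) in KO against WT at P12 and at P18 and in P18 against P12 in KO and in WT. Adam2 and Adam5 at P12 have short error bars left of 0, the P18 bars all span 0, and the fitted values of Adam18 against KO P12 depend on the handling of 0 counts and are no bound.

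At P18, KO against WT as labelled gave no call. The libraries of both labels overlap for all 6 genes, while 6.71% of all genes were lower and 3.38% higher in KO without overlap. The log2 differences were 0.53 ± 1.72 for Adam2, 1.23 ± 2.44 for Adam3, 0.90 ± 2.13 for Adam5, 1.23 ± 2.84 for Adam18, 0.96 ± 2.25 for Adam32 and -0.12 ± 0.81 for Adam1a, each with an edgeR adjusted p = 1.0. In this edgeR fit of all 8 libraries 0 of 6 genes and 0% of all genes were called, with 189 genes at an unadjusted p under 0.05, while DESeq2 called 76 genes and limma 27. Errors of this size leave differences of several log2 units undetectable. Hepatocyte markers were high in both KO P18 libraries and low in both WT P18 libraries, whereas the 6 ADAM genes split within each label.

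Without the libraries labelled KO P18 replicate 1 and WT P18 replicate 1, 1 library per label is left at P18, and its spread is assumed to be that of the P12 groups. There edgeR called 5 genes lower in KO, with differences of -4.46 ± 0.41 for Adam2, -6.66 for Adam3, -5.81 ± 0.45 for Adam5, -7.17 for Adam18 and -6.39 for Adam32 and adjusted p between 0.000903 and 0.0114. The Adam1a row differed by 1.17. Adam3, Adam18 and Adam32 reached 1 FPKM only in P18 libraries, and of those only WT P18 replicate 2 is kept here. The expression minimum thus favoured a lower KO level for them in this fit. That fit called 22.4% of all genes lower in KO, and its choice of libraries by their Alkbh5 level makes it a description of 2 libraries, not of the labels.

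Between the ages, P18 against P12 describes the onset of the genes. Adam3, Adam18 and Adam32 reached the expression minimum only through P18 libraries, and Adam5 reached 1 FPKM in only 1 P12 library. The minimum itself thus favoured a higher level at P18 in these 4 genes, and their counts against the background below are a description. In KO all 5 genes other than Adam1a had both P18 libraries above both P12 libraries, against 22.2% of all genes, and Adam1a had both below, against 33.5%. In WT this held for Adam3, Adam5, Adam18 and Adam32, against 16.2% of all genes, while Adam2 overlapped because WT P18 replicate 1, at 4.65 FPKM, lay below WT P12 replicate 2, at 5.39 FPKM. For Adam18 in WT the margin was 27 against 21 counts.

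The log2 differences (P18 minus P12) in KO were 7.26 ± 2.28 for Adam2, 8.68 ± 2.98 for Adam5, 7.82 ± 3.03 for Adam32 and 11.04 ± 3.79 for Adam3, each with an edgeR adjusted p = 0.262. In WT they were 3.85 ± 1.93 for Adam2, 6.05 ± 2.64 for Adam5, 6.30 ± 2.83 for Adam32, 7.08 ± 3.75 for Adam18 and 9.24 ± 3.53 for Adam3, each with an edgeR adjusted p = 0.614. The Adam1a row gave -0.64 ± 0.81 in KO and 0.27 ± 0.81 in WT, with edgeR adjusted p of 0.618 and 0.900, and 0.21 ± 0.15 and 0.19 ± 0.15 once summed with its overlapping genes.

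edgeR called 0 of 6 genes and 0% of all genes in either age comparison, with 3180 genes at an unadjusted p under 0.05 in KO and 1082 in WT. At that unadjusted threshold 4 of the 6 genes were higher in KO, against 11% of all genes, and 1 of the 6, Adam3, was higher in WT, against 3.22%. DESeq2 called 5 of the 6 in KO, all but Adam1a, while calling 10.6% of all genes higher, and 4 of these 5 are the genes that the expression minimum favoured. In WT it called Adam3 alone of the 6, against 1.69%, and limma called 31 genes in KO and 0 in WT, none of them among the 6. Without the 2 P18 libraries that go against their labels, edgeR called Adam2, Adam3 and Adam5 higher in KO, against 7.08% of all genes, and all but Adam1a higher in WT, against 26.4%.

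The interaction, which sets the P18 minus P12 difference of KO against that of WT, was 3.41 ± 2.53 for Adam2 and ran between -0.90 for Adam1a and 7.64 ± 7.16 for Adam18. The Adam18 value depends on the handling of its 0 counts in KO P12 and is no bound. edgeR called 0 of 6 genes and 0% of all genes (160 at an unadjusted p under 0.05), DESeq2 called 45 genes and limma 7, none of them among the 6. Without the 2 discordant libraries, 1 library per label is left at P18, and its spread is assumed to be that of the P12 groups. There the interaction was -4.08 for Adam5 and -5.83 for Adam32, and it ran between -6.09 for Adam3 and 0.38 for Adam1a. Adam3, Adam18 and Adam32 reached 1 FPKM only in P18 libraries, of which only WT P18 replicate 2 is kept. The expression minimum thus favoured a negative interaction for them, and the values describe single P18 libraries, not the labels.

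The other ADAM genes divide into those of the germ line and the rest. Of 15 further germ-line ADAM genes listed, 12 were in the table and 2 reached the expression minimum, Adam1b and Adam30. Adam30, a testis ADAM gene, had 12.7 and 0.435 FPKM in KO P18, 0.260 and 6.42 FPKM in WT P18, 0.139 and 0.144 FPKM in KO P12, and 0.467 and 0.359 FPKM in WT P12. It was high in the same P18 libraries as Adam2, and at P12 it differed by -1.52 ± 0.37 (edgeR adjusted p = 0.161), against -0.13 ± 0.23 for Adam1b (edgeR adjusted p = 0.857). At P18 edgeR called neither as labelled. Without the 2 discordant libraries, the fit keeps 1 library per label at P18, KO P18 replicate 2 and WT P18 replicate 2. Both genes stood lower in that KO library, which describes these 2 libraries and not the labels. The share of all genes that this fit called lower in KO is given above, and no trait particular to Adam1b and Adam30 is shown. Adam30 reached 1 FPKM only in KO P18 replicate 1 and WT P18 replicate 2, and only the second of these is kept there. The expression minimum thus favoured a lower KO level of Adam30 in that fit. Adam4 did not pass 0.458 FPKM in any library.

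Of the remaining 14 ADAM genes listed, 10 were tested and none was called in any of the 5 comparisons by edgeR, DESeq2 or limma with the libraries as labelled. Without the 2 discordant P18 libraries edgeR called 4 of 10 higher in KO at P18 (Adam9, Adam10, Adam12, Adam23), against 15.6% of all genes, Adam9 higher at P18 in KO, against 7.08%, 4 of 10 lower at P18 in WT (Adam10, Adam12, Adam17, Adam19), against 18.6%, and Adam9 and Adam10 higher in the interaction, against 2.68%. At P12 their differences ran between -0.43 and 0.27 with a median of -0.00, and 1 of 10, Adam12, was higher at an unadjusted p under 0.05, against 5.37% of all genes, which is near the background. The lowest p values belonged to Adam12, with 0.24 ± 0.10 and an edgeR adjusted p = 0.342, Adam23, with 0.27 ± 0.13 and an edgeR adjusted p = 0.416, and Adam15, with -0.17 ± 0.09 and an edgeR adjusted p = 0.469. In KO P18 replicate 1 and WT P18 replicate 2, where the sperm ADAM genes were high, 7 of the 10 lay below their level in each of the other 6 libraries, 1 (Adam11, at 2.07 and 1.78 FPKM against 1.20 to 1.58 FPKM) lay above it and 2 did neither. The share of all genes that lay below or above in this way was not counted. These numbers therefore describe the listed genes and show no trait particular to them. Among the 7 were Adam10 and Adam17, widely expressed sheddases, at 16.0 FPKM in KO P18 replicate 1 and 20.3 FPKM in WT P18 replicate 2 for Adam10 against 34.2 to 37.6 FPKM in the other 6 libraries. Adam17 had 9.10 and 11.1 FPKM in those libraries, against 13.4 to 16.5 FPKM in the other 6, and Adam10, Adam11 and Adam17 were chosen after their values were seen.

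**Figure D5:**
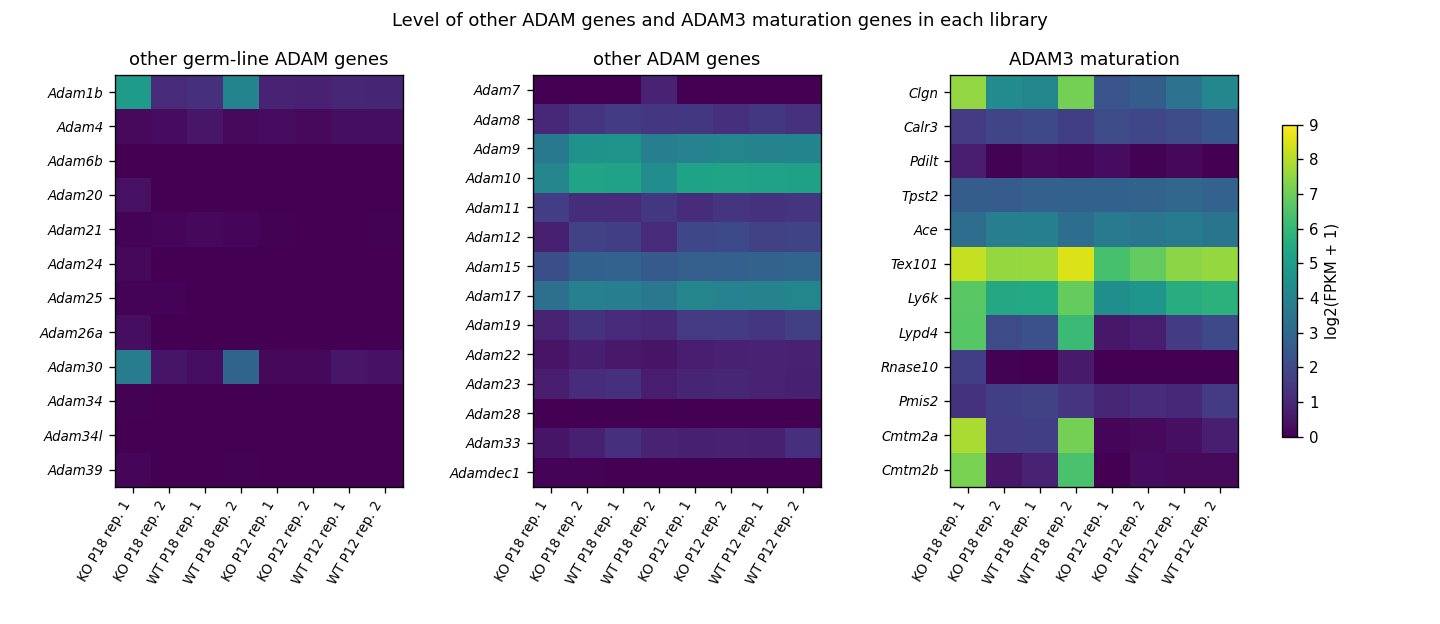
Level of the other germ-line ADAM genes, the remaining ADAM genes and the ADAM3 maturation genes in each library (colour, log2(FPKM + 1)). Adam1b, Adam30, Clgn, Lypd4, Cmtm2a and Cmtm2b are brightest in KO P18 replicate 1 and WT P18 replicate 2, and Adam9, Adam10 and Adam17 are darker there. Not all maturation genes are brightest there. Ace had 8.34 and 8.56 FPKM in those libraries, against 10.4 to 13.9 FPKM elsewhere.

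Genes known to be needed for ADAM3 to mature or reach the sperm surface formed a list of 14, of which 12 were in the table and 10 were tested. At P12 all 10 had a log2 difference below 0, with a median of -0.68 against 0.01 over all genes, 5 of 10 were lower at an unadjusted p under 0.05 against 8.35% of all genes, and edgeR called 0. DESeq2 called 4 of them lower, Clgn, Ly6k, Lypd4 and Tex101, against 3.27% of all genes, and limma called 0. Ly6k, a partner of TEX101, had 21.4 and 25.3 FPKM in KO P12 and 48.2 and 53.6 FPKM in WT P12 and differed by -1.11 ± 0.12 with an edgeR adjusted p = 0.0527. Lypd4 had 0.50 and 0.59 FPKM in KO P12 and 2.00 and 2.96 FPKM in WT P12, a difference of -2.16 ± 0.32 with an edgeR adjusted p = 0.0749. Tex101, a germ cell surface protein, had 82.9 and 112.9 FPKM in KO P12 and 172 and 190.2 FPKM in WT P12, a difference of -0.88 ± 0.14 with an edgeR adjusted p = 0.0794. In these 3 genes, named for the lowest p in the list, the KO and WT libraries do not overlap at P12, as in the 24% of all genes that were lower in KO without overlap. Tex101 is also one of the 4 germ cell markers.

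Ly6k and Tex101 were already at over 20 FPKM in every P12 library, when Adam3 was at 0 to 0.125 FPKM. Cmtm2a and Cmtm2b, which mice need for ADAM3 on sperm, were low at P12 as Adam3 was. Cmtm2a had 229 and 2.13 FPKM in KO P18, 2.19 and 137.5 FPKM in WT P18, 0.101 and 0.178 FPKM in KO P12, and 0.288 and 0.703 FPKM in WT P12. Cmtm2b followed the same order of libraries at P18, with 144 and 0.465 FPKM in KO P18 and 0.827 and 84.3 FPKM in WT P18. Of the 10 tested genes of this list, 8 had a P18 minus P12 log2 difference above 0 and 2 below 0, in KO and in WT alike. Cmtm2a, and Ace in the figure of these genes, were chosen after their values were seen.

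Of 8 tested regulators of germ-line transcription, 7 had a log2 difference below 0 at P12, 5 were lower at an unadjusted p under 0.05, against 8.35% of all genes. edgeR and limma called 0, and DESeq2 called 4 lower, against 3.27% of all genes. The lowest p values were those of Sox30 (-1.16 ± 0.20, edgeR adjusted p = 0.0870), Rfx2 (-0.89 ± 0.17, edgeR adjusted p = 0.110) and Tcfl5 (-0.51 ± 0.11, edgeR adjusted p = 0.124). Sox30 had 1.10 and 1.38 FPKM in KO P12 and 2.70 and 2.89 FPKM in WT P12. Sox30 is also one of the pachytene and diplotene spermatocyte markers, and Stra8, another of these regulators, is one of the spermatogonium markers. The regulator and marker lists are therefore not independent. Of 6 sperm-egg fusion genes only Spaca6 was tested, with 0.17 ± 0.08 at P12 (edgeR adjusted p = 0.412).

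Among 13117 tested genes with an established name, those nearest in pattern were found by the distance between centred log2(FPKM + 1) profiles over the 8 libraries. For Adam2 they were Pdcl2 at a distance of 0.38, Cfap65 at 0.42 and Piwil1, a PIWI protein of pachytene spermatocytes, at 0.47. Pdcl2 had 151 and 7.41 FPKM in KO P18, 5.26 and 109 FPKM in WT P18, 0.666 and 0.786 FPKM in KO P12, and 2.81 and 6.88 FPKM in WT P12. It had the same order of groups as Adam2, with KO P12 below WT P12, which follows from its choice as the nearest gene over these libraries.

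For Adam3 the nearest were Pabpc2 at 0.38, Cmtm2b at 0.56 and Hspb9 at 0.70, and for Adam5 they were Rbakdn at 0.35, Spink2, an acrosomal protease inhibitor, at 0.42 and Crisp2, a sperm secretory-type protein, at 0.51. Adam18 had Fbxw10 at 0.10, Slco6c1 at 0.23 and Pom121l2 at 0.27, and Adam32 had Qrich2, a flagellar protein, at 0.43, Tdrd6, a chromatoid body protein, at 0.56 and Pebp4 at 0.58. The Adam1a row had no gene closer than 1.10, with Rps27rt at that distance, Tstd1 at 1.12 and B4gat1 at 1.14. Between the ADAM genes the smallest distance was 0.79 for Adam3 and Adam5, which are neighbours on chromosome 8, followed by 0.90 for Adam3 and Adam32, and Adam2 was at 1.91 to 2.41 from the 4 tandem genes. Adam18 was as far from its tandem neighbours, at 2.47 from Adam5, 2.33 from Adam3 and 1.61 from Adam32. This distance also depends on the level a gene reaches, which was lower for Adam18 than for the others. By correlation over the 8 libraries, Adam18 stood at 0.988 to 0.997 with its tandem neighbours. Adam2 stood at 0.951 to 0.982 with the 4 tandem genes. With a pseudocount of 0.1, 7 of the 18 nearest genes were the same, and without the 2 discordant P18 libraries 9 were.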

How the data were processed

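RNA-seq of testis poly(A) RNA gave 8 libraries, read here from 1 table that the authors deposited, with an FPKM value and a count per gene and library. Per the submitters' processing notes the tools were cutadapt 1.9, HISAT2 2.2.1 and StringTie 2.1.6 on GRCm38. The deposited counts are whole numbers with a different total in each library. The tool and strand setting that made the counts are not given in the sources used here. The deposited FPKM values were used for levels and the deposited counts for tests.

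Genes with at least 1 FPKM in at least 2 libraries were tested with edgeR 4.0.16 (quasi-likelihood F-test, TMM scaling, R 4.3.3, two-sided), with Benjamini-Hochberg adjustment over all genes tested and a threshold of 0.05. KO against WT at P12 used the 4 P12 libraries (2 residual degrees of freedom, 16541 genes with counts), and the other 4 comparisons used all 8 libraries (4 residual degrees of freedom, 16702 genes). SE is the log2 difference over the root of the F statistic. Only the comparison of KO with WT at P12 was first tried on simulated counts. The simulated spread was near that of the P12 libraries (edgeR common dispersion 0.0179) and far below that of the fit of all 8 libraries (0.226). It therefore does not cover the P18, age and interaction comparisons. DESeq2 1.42.0, limma 3.58.1 on log2(FPKM + 1), other scaling and filters, the replicate number as a block and libraries left out were alternatives. Sums at the Adam1a locus, a crossed block, and list calls and nearest genes without the 2 discordant P18 libraries were added after seeing the data. The members and lists were chosen with earlier results of these data known. Genes named from a list are the 3 of lowest unadjusted p at P12, and 3 nearest genes are named per member. Replicate numbers did not pair the libraries.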

Additional observations from a re-analysis of the deposited data

How the results depend on the processing

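Limits: with 2 libraries per group, of which 1 per P18 label goes against that label in Alkbh5, the labelled P18 fits have wide errors. The part of depth in these errors was not tested, and Adam18 held 23 counts in KO P18 replicate 2 and 27 counts in WT P18 replicate 1. Depth limits Adam3 and Adam18 at P12, with 0 to 25 counts per library. The cause of the changes below was not tested.

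At P12, edgeR called 0 of 6 genes and 9 genes in all. With DESeq2 size factors it called 1 (Adam2) and 23 genes, with no filter 0 genes, and from all 8 libraries 0 genes. DESeq2 called 2 (Adam2, Adam5) and 659 genes, and limma called 0 with either pseudocount. The replicate numbers do not pair the samples (same-numbered deviations correlate at -0.0489 for KO P12 with WT P12 and -0.939 for KO P18 with WT P18, over genes, 2 pairs each). With the replicate number as a block, edgeR called 2 (Adam2, Adam5) and 442 genes at P12, and Adam3 turned to 0.0155. In the other comparisons the block called no gene. Crossing the P18 numbers in the block called 0 genes in each of the 4 comparisons, and Adam1a at P18 turned to 0.0820. Leaving out 1 P12 library gave 0 to 2 of the 6 genes and 6 to 208 genes. Without WT P12 replicate 1 the 2 were Adam2 and Adam5, and without WT P12 replicate 2 they were Adam2 and Adam1a, with 208 and 37 genes.

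For KO against WT at P18 the counts of all genes were 76 (DESeq2), 27 and 2 (limma, pseudocounts 1 and 0.1), for age in KO 2381, 31 and 4, with 5 genes without the filter, for age in WT 408 with DESeq2, and for the interaction 45 with DESeq2 and 7 with limma at pseudocount 1. Of the 6 genes DESeq2 called 5 for age in KO and 1 for age in WT. In the limma fits the median of all genes for age in KO was -0.13 and -0.17, against 0.02 in edgeR.

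Without the 2 P18 libraries that go against their labels, edgeR called 5 of 6 and 6357 genes at P18, 3 and 1806 for age in KO, 5 and 7507 for age in WT, and 2 and 2304 for the interaction. These fits keep 1 library per label at P18, so their calls describe single libraries, with the limit of the expression minimum given above. At P18 Adam1a turned to 1.17, Adam2 to -4.46, Adam3 to -6.66, Adam5 to -5.81, Adam18 to -7.17 and Adam32 to -6.39. In the interaction Adam1a turned to 0.38, Adam2 to -1.58, Adam3 to -6.09, Adam5 to -4.08, Adam18 to -0.74 and Adam32 to -5.83, and Adam1a for age in WT turned to -0.79.

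Adam1a summed with Mapkapk5 and Gm42878 turned to -0.0180 at P12, 0.0197 at P18, 0.21 for age in KO and 0.0217 in the interaction.

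Leaving out each library in turn turned some log2 differences round, with these lowest and highest values. For KO against WT at P12 they were -1.59 to 6.10 for Adam3. For KO against WT at P18 they were -0.72 to 0.94 for Adam1a, -3.52 to 4.16 for Adam2, -5.69 to 6.29 for Adam3, -4.83 to 5.89 for Adam5, -6.19 to 7.00 for Adam18 and -5.41 to 6.27 for Adam32. For age in WT they were -0.79 to 1.75 for Adam1a. For the interaction they were -2.39 to 0.15 for Adam1a, -0.64 to 7.04 for Adam2, -5.11 to 6.86 for Adam3, -3.11 to 7.61 for Adam5 and -4.84 to 6.84 for Adam32. In those fits the P18 comparisons, both age comparisons and the interaction called no gene. Each library on its own placed 1 to 6 of the 6 genes at their rank of the group mean in KO P18, 1 to 6 in WT P18, 4 to 6 in KO P12 and 2 to 6 in WT P12. The nearest genes shared 7 of 18 with a pseudocount of 0.1 and 9 of 18 without the 2 P18 libraries that go against their labels, a setting chosen after seeing the data.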

Other observations

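Some markers of the epididymis, the duct next to the testis, stood higher in WT P18 replicate 2 than in the other libraries. Crisp1 had 36.8 FPKM there, against 0 to 0.0946 FPKM in the other 7 libraries, Adam7, an ADAM gene of the epididymis, had 228 counts there against 0 to 4 counts elsewhere, and Lcn5 had 0.943 FPKM there against 0 elsewhere. Others did not: Cst11 had 0.649 FPKM there, its lowest level, against 0.768 to 2.47 FPKM elsewhere, and Cst8 had 2.2 FPKM there against 2.03 to 8.16 FPKM elsewhere. The 8 epididymis markers summed to 41.8 FPKM in that library and to 2.93 to 10.6 FPKM in the other 7, and 2 of the 8 were at 0 there against 4 to 6 in the others. Crisp1, Adam7, Lcn5, Cst11 and Cst8 were chosen after their values were seen.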
